A study of Mus musculus with 21 samples.

Results

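The comparison set the 7 mammary tumors with the highest epithelial score against the 7 with the lowest, of 21 tumors in all. The score of a tumor was the mean of the log2 CPM (read counts scaled to library size and to composition by TMM, a trimmed mean, with a prior count of 2) of 4 genes, Epcam, Cdh1, Krt8 and Krt18. The members were thus selected on the measured levels of these 4 genes, which were left out of every count of genes. The 21 tumors came from 17 female virgin mice, and bulk total RNA was sequenced after ribosomal RNA depletion. All mice carried FloxNeoNeuNT, an activated Neu cDNA placed in the endogenous Erbb2 gene behind a removable stop, and MMTV-CreNLST, a Cre driven in mammary epithelium. The 12 tumors of the RhoC cohort carried in addition R26(RhoC/+), a RhoC-IRES-eGFP cassette in Rosa26 that the same Cre switches on. Of the 9 tumors of the control cohort, 7 carried Gata4(loxP/+) and 2 (N-15 and N-17) did not. Each group of 7 therefore mixes genotypes, and the groups were formed from the same RNA that is compared, so a difference between them is an association with the score and not an effect of a treatment.

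Keratin 8 and keratin 18, the products of Krt8 and Krt18, pair into the intermediate filaments of simple and luminal epithelium. E-cadherin (Cdh1) holds neighbouring epithelial cells together at adherens junctions, and EpCAM (Epcam) is an adhesion glycoprotein of most carcinoma cells. In the mammary gland the luminal layer makes keratins 8 and 18 and the basal layer makes keratins 5 and 14, while loss of E-cadherin with gain of vimentin and fibronectin is the usual picture of an epithelial-mesenchymal transition.

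The score-high tumors were N-15 (9.83), R-13 (9.51), N-8 (9.40), R-14 (9.24), N-6 (9.12), R-12 (9.03) and R-15 (8.97), where N marks the control cohort and R the RhoC cohort. The score-low tumors were N-1 (8.50), R-2 (8.48), R-21 (8.39), N-7 (8.36), N-3 (8.24), R-6 (7.89) and R-10 (7.65). The limits between the groups were narrow, with R-15 at 8.968 just inside the score-high group and R-18 at 8.954 just outside it. N-1 at 8.4996 was just inside the score-low group and N-17 at 8.5246 just outside it. Of the score-high tumors, R-13, R-14 and R-15 came from 1 mouse, so that group held 5 mice and the score-low group 7.

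The 2 keratins set the order, as a description of the values that formed the groups. Krt8 ran from 8.47 to 10.62 log2 CPM (median 9.05) in the score-high tumors and 7.23 to 7.85 (median 7.44) in the score-low tumors. Krt18 ran from 8.30 to 9.91 log2 CPM (median 8.63) in the score-high tumors and 6.49 to 7.56 (median 7.48) in the score-low tumors. In both genes all 7 score-high tumors lay above all 7 score-low tumors. Epcam overlapped, at 8.61 to 9.91 log2 CPM (median 9.15) in the score-high tumors and 7.62 to 9.63 (median 8.85) in the score-low tumors, and so did Cdh1, at 9.71 to 10.19 log2 CPM (median 9.89) in the score-high tumors and 8.998 to 9.96 (median 9.43) in the score-low tumors. Of the difference of 1.08 in mean score between the groups, Krt8 gave 39.2% and Krt18 38.97%, against 10.2% from Epcam and 11.5% from Cdh1. Across the 21 tumors, Pearson's r was 0.91 between Krt8 and Krt18 but 0.17 between Epcam and Cdh1 and 0.08 between Epcam and Krt8, given as a description over tumors that share mice and scaling. On the authors' length-scaled FPKM the median over 21 tumors was 260.1 for Epcam, 189 for Cdh1, 188 for Krt18 and 142 for Krt8, so the defining epithelial markers were present in every group and the lowest Cdh1 value in any tumor was 8.88 log2 CPM.

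**Figure D1:**
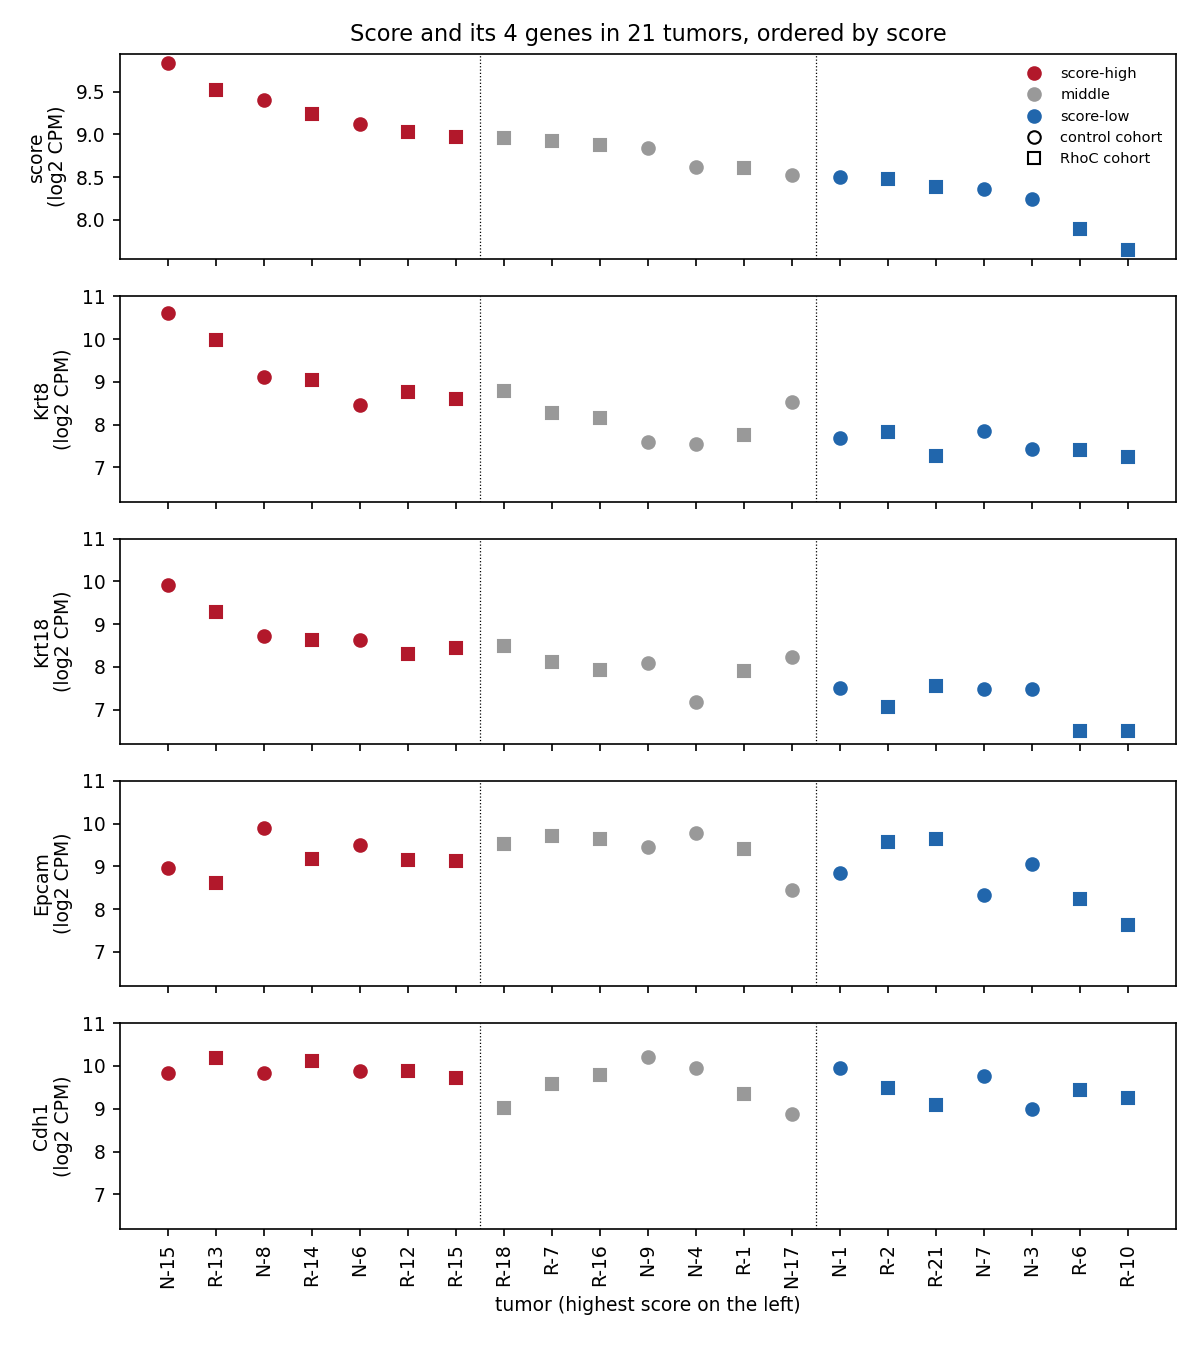
The score and the log2 CPM of Krt8, Krt18, Epcam and Cdh1 (y axes) in each of the 21 tumors, ordered by score on the x axis, with circles for the control and squares for the RhoC cohort and dotted lines at the limits of the groups. Krt8 and Krt18 step down with the score, whereas Epcam and Cdh1 overlap between the score-high and score-low tumors.

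Krt8 and Krt18 are neighbours on chromosome 15 (Krt8 at chr15:101996698-102004482 on the minus strand, Krt18 at chr15:102028180-102032027 on the plus strand, GRCm38.p6), and their levels moved together. Their promoter windows and that of Epcam, which did not follow them, are printed here from RefSeq (GRCm38.p6), each running from 250 bases before the RefSeq start of the gene to 50 after it, 5′ to 3′ on the strand of the gene. The gene spans above are those of the deposited table, whose starts for Krt8 and Krt18 are not the RefSeq starts. Capitals mark the E-box CAGGTG or its complement CACCTG, the sequence bound by repressors of the Snail and Zeb families. The windows are chr15:102004293-102004592 for Krt8, chr15:102027966-102028265 for Krt18 and chr17:87635729-87636028 for Epcam.
Krt8: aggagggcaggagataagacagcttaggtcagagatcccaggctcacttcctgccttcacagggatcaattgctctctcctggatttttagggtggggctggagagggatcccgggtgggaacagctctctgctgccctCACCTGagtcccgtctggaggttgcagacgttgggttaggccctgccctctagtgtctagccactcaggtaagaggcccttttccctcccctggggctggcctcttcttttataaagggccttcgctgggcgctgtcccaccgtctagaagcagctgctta
Krt18: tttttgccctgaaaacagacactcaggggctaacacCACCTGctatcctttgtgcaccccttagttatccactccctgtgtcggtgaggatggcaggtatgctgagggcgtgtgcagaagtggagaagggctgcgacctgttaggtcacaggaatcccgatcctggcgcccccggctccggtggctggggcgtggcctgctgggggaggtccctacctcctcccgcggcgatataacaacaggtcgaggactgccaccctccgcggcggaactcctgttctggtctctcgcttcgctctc
Epcam: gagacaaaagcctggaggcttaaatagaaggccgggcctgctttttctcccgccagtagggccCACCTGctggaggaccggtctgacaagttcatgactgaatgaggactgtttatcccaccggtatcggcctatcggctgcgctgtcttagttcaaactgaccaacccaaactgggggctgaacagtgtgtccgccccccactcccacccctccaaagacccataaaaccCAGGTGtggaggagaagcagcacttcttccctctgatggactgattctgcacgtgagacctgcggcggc
The Krt8 and Krt18 windows each held 1 E-box and the Epcam window 2, and 20.2% of the 32851 RefSeq promoter windows of this length held at least 1. The GC box (GGGCGG or CCGCCC) was absent from the Krt8 and Krt18 windows and present once in that of Epcam, against 35.7% of all windows, and none of the 3 held the AP-1 element TGANTCA, which 7.81% of all windows held. These matches describe letters and show no binding.

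Cohort did not separate the groups. Each group held 4 RhoC and 3 control tumors (Fisher's exact test, two-sided, p = 1), and the 7 tumors between them were also 4 RhoC and 3 control. The score was 8.71 ± 0.54 (SD, n = 12) in the RhoC cohort and 8.83 ± 0.53 (SD, n = 9) in the control cohort, a difference of -0.11 that was smaller than the spread between tumors (two-sided exact permutation test over 293930 labelings, p = 0.631). By the pathology recorded for these tumors, the score-high group held 2 squamous cell carcinomas (R-13 and R-14), 3 poorly differentiated adenocarcinomas (N-15, N-6 and N-8, the last from a mouse with further tumors of that type and of the solid nodular type), 1 complex adenocarcinoma (R-12), and R-15, recorded as solid nodular carcinoma or poorly differentiated adenocarcinoma. The score-low group held 1 squamous cell carcinoma (R-6), 1 spindle cell tumor (N-1), 1 poorly differentiated adenocarcinoma (N-3), 1 complex adenocarcinoma (R-10), 1 solid nodular carcinoma (N-7), and R-2, for which a poorly differentiated adenocarcinoma and an adenomyoepithelioma were both recorded. No histology was assigned to R-21 here. Squamous, complex and poorly differentiated tumors thus occurred in both groups. Of the score-high control tumors 2 carried Gata4(loxP/+), and of the score-low control tumors all 3 did.

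The files held 47309780 to 100741339 counts per tumor, and depth did not differ beyond the spread between tumors (difference of 0.25 in mean log2 total, score-high minus score-low, exact permutation test, two-sided, p = 0.121, 7 against 7). Another quantity did move with the groups. The share of counts on noncoding gene classes (lincRNA, antisense, sense intronic, processed transcript, bidirectional promoter and TEC, a class of loci still to be characterised) was 1.24% ± 0.29 (SD, n = 7) in the score-high and 1.99% ± 0.49 (SD, n = 7) in the score-low tumors, a difference of -0.75 percentage points (exact permutation test, two-sided, p = 0.00758, chosen after the values were seen). The TMM factor was 0.939 ± 0.055 (SD, n = 7) against 1.09 ± 0.10 (SD, n = 7). The TMM factor also enters the score. With library size alone as the scaling of the fit, 3172 genes had an unadjusted p under 0.05 and edgeR called 0. When the groups themselves were formed from log2 CPM scaled to library size alone, 812 genes did (4.37%) and edgeR again called 0.

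No gene passed the test between the groups. Of 18716 genes tested outside the score, 0 had an adjusted p under 0.05 in edgeR's quasi-likelihood test (0% of the genes tested), and the smallest adjusted p was 0.201. An unadjusted p under 0.05 was reached by 2303 genes, 870 higher (4.65%) and 1433 lower (7.66%) in the score-high tumors, and the median log2 fold change over all genes was -0.06. DESeq2 was run at its defaults and without edgeR's filter on low counts. Its size factors, its estimate of the spread and its treatment of outlying counts also differ. It called 486 of 22751 genes, 160 higher (0.703%) and 326 lower (1.43%). Leaving out the squamous tumor R-6 alone, edgeR called 10 genes higher and 9 lower, among them Cotl1, Tnfrsf12a, Capg and Cd151. No tumor other than R-6 changed the count of 0 when left out. The differences reported from here on did not pass this correction and are given as measured.

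Rhoc, the gene of the engineered small GTPase that drives actomyosin contraction and invasion, had groups that did not overlap, although the cohorts were balanced in them. Its level in CPM was 102 in N-15, 138 in R-13, 173 in N-8, 103 in R-14, 148 in N-6, 146 in R-12 and 100.2 in R-15 among the score-high tumors. Among the score-low tumors it was 42.3 in N-1, 22.5 in R-2, 94.6 in R-21, 26.1 in N-7, 37.1 in N-3, 78.2 in R-6 and 64.4 in R-10. All 7 score-high tumors lay above all 7 score-low tumors (log2 fold change 1.30, SE 0.30, adjusted p = 0.201 by edgeR's quasi-likelihood test). Groups that did not overlap were found for 17 genes higher in the score-high tumors (0.0908% of those tested) and 14 lower (0.0748%). Within the control cohort the mean log2 CPM was 1.997 higher in the 3 score-high than in the 3 score-low tumors, and within the RhoC cohort, with 4 against 4, it was 1.07 higher. The 7 middle tumors ran from 27.8 to 98.9 CPM, all below the score-high tumors and overlapping the score-low ones.

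Over all 21 tumors the level of Rhoc did not separate the cohorts. It ran from 26.1 to 173 CPM (median 48.8, n = 9) in the control cohort and from 22.5 to 146 CPM (median 89.3, n = 12) in the RhoC cohort, a difference of 0.40 in mean log2 CPM (two-sided exact permutation test, p = 0.302). The lowest value of all, in R-2, belonged to a library labelled RhoC, and the highest, in N-8, to a control library, so the level of Rhoc alone did not check the cohort labels of single libraries. The summed level of 7 neighbouring genes of Erbb2 was 2189.9 to 16909.8 CPM in 8 of 9 control libraries, 434 CPM in the control N-15 and 366 to 686 CPM in the 12 RhoC libraries. Counts on Rhoc do not tell the endogenous gene from the transgene. DESeq2 called Rhoc higher. Cdc42, the GTPase of filopodia and polarity, ran from 561 to 684 CPM (median 612) in the score-high tumors against 254 to 578 CPM (median 476) in the score-low tumors (log2 fold change 0.44, SE 0.18, adjusted p = 0.369).

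**Figure D2:**
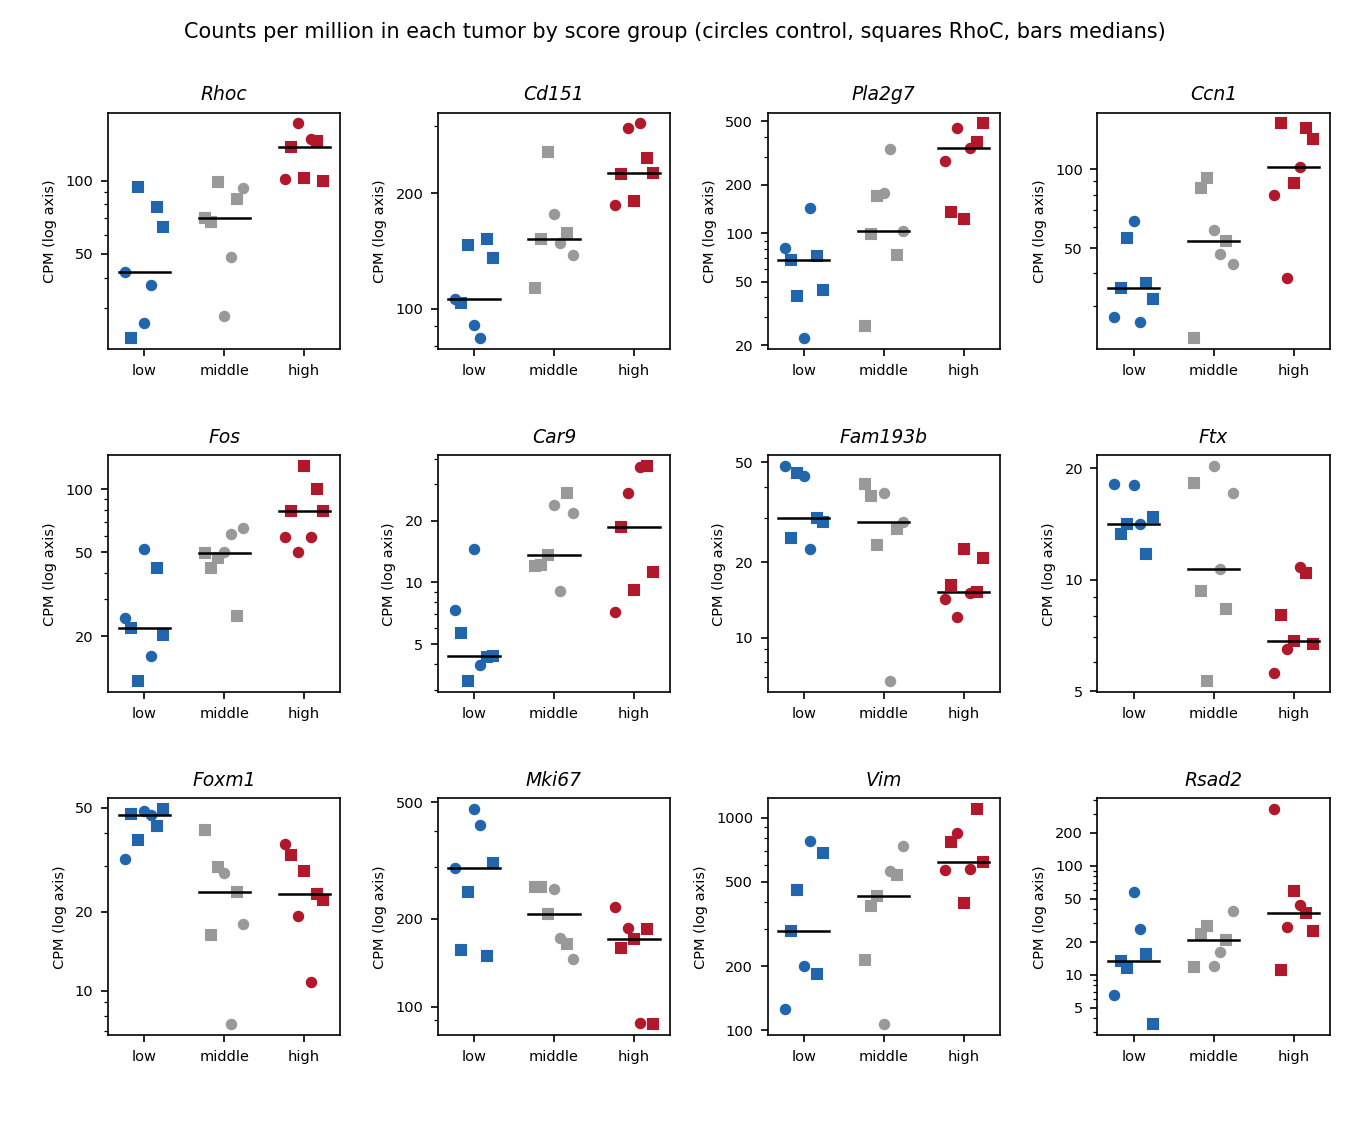
CPM (log y axis) of 12 genes in the score-low, middle and score-high tumors, with circles for the control cohort, squares for the RhoC cohort and bars at the group medians. Rhoc and Cd151 of all 7 score-high tumors sit above those of all 7 score-low tumors, Fam193b and Ftx sit below, and Mki67, Vim and Rsad2 overlap.

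The 15 genes with the smallest p among those higher in the score-high tumors, with a mean over 2 log2 CPM, all had the same adjusted p of 0.201, so their order carries little. Cd151, a tetraspanin that binds laminin-receptor integrins, ran from 187 to 305 CPM (median 226) in the score-high tumors against 83.8 to 152 CPM (median 106) in the score-low tumors (log2 fold change 1.01, SE 0.18, adjusted p = 0.201). Sdcbp, which encodes the syntenin adaptor of exosomes, ran from 357 to 609.8 CPM (median 495) in the score-high tumors against 194 to 337 CPM (median 276) in the score-low tumors, and Cd63, another exosomal tetraspanin, from 93.01 to 339.5 CPM (median 160.0) in the score-high tumors against 36.3 to 117 CPM (median 62.8) in the score-low tumors. In Cd151 and Sdcbp the groups did not overlap. The log2 fold changes were 1.01, 0.80 and 1.32 in that order. Msrb1, a methionine sulfoxide reductase, did not overlap either, at 52.4 to 103 CPM (median 67.9) in the score-high tumors against 31.8 to 50.8 CPM (median 35.2) in the score-low tumors.

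A pair of immediate-early genes that respond to growth factors and to cell stretch were among the 15. Ccn1, a matricellular protein and target of YAP, ran from 38.3 to 150.2 CPM (median 102) in the score-high tumors against 26.1 to 63.2 CPM (median 35.3) in the score-low tumors (log2 fold change 1.39, SE 0.29, adjusted p = 0.201). Fos, a subunit of AP-1, ran from 50.002 to 128 CPM (median 78.9) in the score-high tumors against 12.2 to 52.05 CPM (median 21.8) in the score-low tumors (log2 fold change 1.53, SE 0.32, adjusted p = 0.201). The 2 groups overlapped in both genes, at their edges. Within the RhoC cohort the difference in mean log2 CPM was 1.70 for Ccn1 and 2.11 for Fos, and within the control cohort it was 0.93 and 1.03. The rest of the higher genes were Pla2g7 (2.19), Alg2 (0.72), Gvin1 (2.17), Gm4070 (2.23), Car2 (2.28), Aifm2 (1.03), Bhlhe41 (2.69), Lysmd2 (1.28) and Ndfip1 (0.73), as log2 fold changes. Pla2g7 encodes a secreted phospholipase, Car2 a carbonic anhydrase, Aifm2 an oxidoreductase that guards against ferroptosis and Bhlhe41 a circadian repressor. Bhlhe41 spanned the widest range within the score-high tumors, from 38.5 CPM in N-15 and 49.1 in R-13 to 625.5 in R-15. Gvin1 and Gm4070 are near-identical interferon-induced GTPase sequences. The study counted only reads that mapped uniquely, so reads that match both were dropped. They may still be 1 signal and are uncertain as separate genes.

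Among the 15 lower genes, chosen by the same rule, several were noncoding. Ftx and Jpx are long noncoding RNAs of the X-inactivation centre, and Gm38082 and Gm20045 are unnamed loci. Fam193b ran from 12.1 to 22.5 CPM (median 15.2) in the score-high tumors against 22.7 to 48.3 CPM (median 29.97) in the score-low tumors (log2 fold change -1.09, SE 0.21, adjusted p = 0.201). Ftx ran from 5.61 to 10.8 CPM (median 6.82) in the score-high tumors against 11.7 to 18.1 CPM (median 14.2) in the score-low tumors (log2 fold change -0.95, SE 0.20, adjusted p = 0.201). Cdc37l1, a co-chaperone relative, ran from 35.6 to 55.7 CPM (median 43.8) in the score-high tumors against 56.3 to 88.8 CPM (median 70.7) in the score-low tumors. In all 3 the groups did not overlap. The others, as log2 fold changes, were Ankrd26 (-1.12), Zgrf1 (-1.05), Sfswap (-0.70), Jpx (-1.34), Gm5141 (-1.12), Gm38082 (-0.97), Zkscan3 (-0.81), Tle4 (-1.21), Gga3 (-0.85), Gm20045 (-1.24) and Usp49 (-0.90), and the sarcomere gene Ttn (-6.91). Sfswap regulates splicing, Zkscan3 is a zinc finger repressor and Tle4 a Groucho corepressor.

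Most noncoding classes had negative medians in this fit. The median log2 fold change was -0.01 over 14461 protein-coding genes but -0.57 over 194 sense intronic genes, -0.51 over 1192 TEC loci, -0.44 over 242 processed transcripts, -0.36 over 441 antisense genes and -0.34 over 469 lincRNAs. Of the sense intronic genes 172 of 194 and of the TEC loci 991 of 1192 had a negative difference. Processed pseudogenes, at -0.02, were close to the protein-coding genes, and the 51 genes of the misc_RNA class had a median of 0.32. The score-low tumors held the highest noncoding share of the 14, 2.55% in N-1, and a share of 1.33% in R-10, while the highest of all 21, 2.73%, was in the middle tumor N-17. Sense intronic reads lie on the strand of the host gene and cannot be told from its unspliced RNA. Antisense reads cannot be told from RNA of the gene on the opposite strand unless strand was used in counting. The median over the noncoding classes of the share, pooled, was -0.46, and it was -0.095 when the groups were formed from log2 CPM scaled to library size alone and -0.68 with library size alone as the scaling of the fit. With the noncoding share as a covariate, which comes from the same counts, it was -0.05, and 0 genes passed the edgeR test (1737 at an unadjusted p under 0.05).

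**Figure D3:**
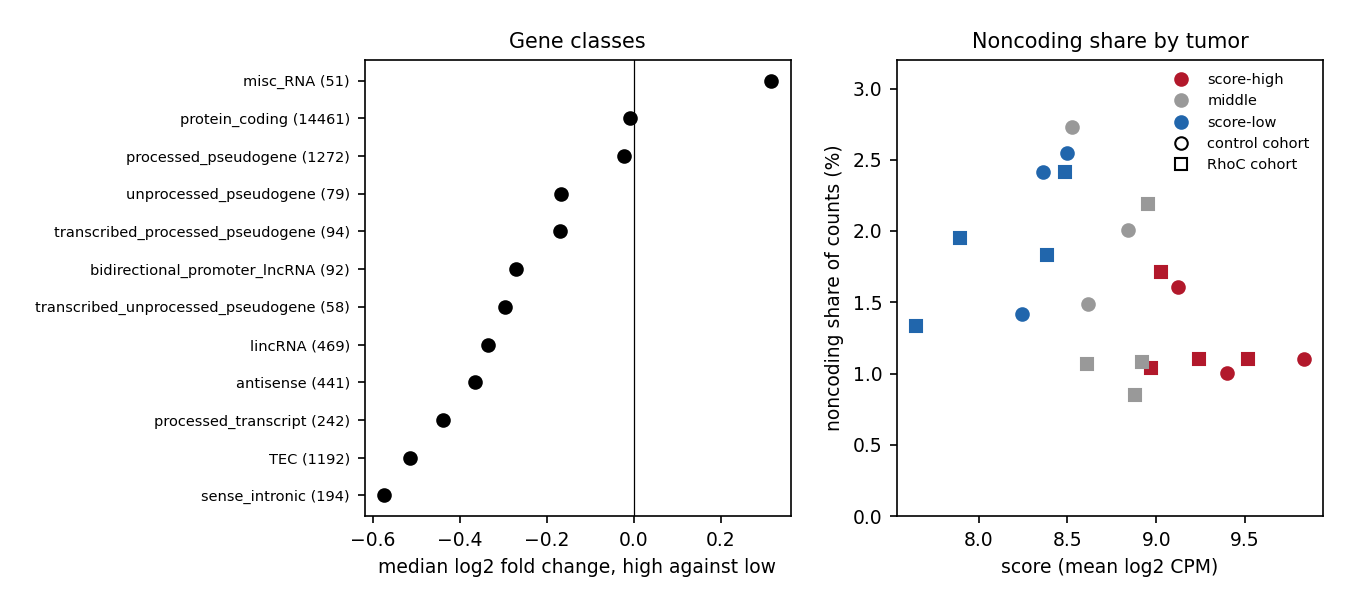
Left, the median log2 fold change of each gene class with at least 50 tested genes, score-high against score-low tumors, with the number of genes in brackets. Right, the share of counts on noncoding classes (y axis, percent) against the score (x axis) in the 21 tumors, where 5 of the 7 score-high tumors lie close to 1% and the score-low tumors run from 1.33% to 2.55%.

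Other epithelial genes followed the score in part. Lists of genes are described by their counts beside the median of -0.06 over all genes, and in all 29 lists 0 members passed edgeR's test at an adjusted p under 0.05. Among tight junction genes, 12 of 15 tested members had a positive difference, the median log2 fold change was 0.45, 3 had an unadjusted p under 0.05 in the higher direction and 0 in the lower. Over all genes tested these shares were 4.65% and 7.66%. The tight junction median was 0.24 with library size alone as the scaling and 0.996 with the noncoding share as a covariate. With library size alone those of the adherens junction and protease genes were 0.11 and 0.10. The median of all genes moved too, to -0.24. Lsr, which builds tricellular junctions, ran from 137 to 267 CPM (median 181) in the score-high tumors against 65.3 to 148 CPM (median 106) in the score-low tumors (log2 fold change 0.74, SE 0.19, adjusted p = 0.233), and DESeq2 called it. F11r, which encodes the junctional adhesion molecule A, had a log2 fold change of 0.55 ± 0.22 SE, and the claudin gene Cldn7 one of 0.80 ± 0.35 SE. Among adherens junction and polarity genes, 11 of 13 tested members had a positive difference, the median log2 fold change was 0.31, 2 had an unadjusted p under 0.05 in the higher direction and 0 in the lower. The 2 with an unadjusted p under 0.05 were Nectin2, an adhesion receptor (0.75 ± 0.27 SE), and Ctnna1, alpha-catenin (0.40 ± 0.18 SE). The proteases and trafficking genes of epithelium had a median of 0.29, with 11 of 14 positive. In the control tumors alone the medians were 0.66 for tight junction, 0.58 for adherens junction and 0.66 for protease genes, and in the RhoC tumors alone they were 0.22, 0.049 and 0.030. The difference between the cohorts was not tested for these lists. Leaving out 1 tumor took the adherens junction median to 0.12 without R-10, 0.16 without N-3 and 0.57 without R-6. It took the tight junction median to 0.27 without N-6 and 0.28 without R-10, and that of the protease genes to 0.18 without N-8.

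Regulators of the epithelial state showed no stable direction. Of these 6 of 17 tested members had a positive difference, the median log2 fold change was -0.06, 0 had an unadjusted p under 0.05 in the higher direction and 0 in the lower. The median changed sign in 10 of 27 other settings. Among them were 0.14 without R-6, 0.22 with the noncoding share as a covariate and 0.13 by voom with the mouse as a random effect. The settings without N-1 and without the spindle cell tumor are the same fit, at 0.04, and both are in these counts. Grhl2, a transcription factor that maintains epithelial identity, ran from 79.7 to 145 CPM (median 96.5) in the score-high tumors against 61.3 to 134 CPM (median 108) in the score-low tumors. Esrp1, an epithelial splicing factor, ran from 194 to 268 CPM (median 245) in the score-high tumors against 129 to 321 CPM (median 221) in the score-low tumors, so the ranges overlapped almost fully in both. The 12 desmosome genes had a median of 0.14, which was negative in 8 of 27 other settings, and Jup, plakoglobin, had -2.04 ± 0.79 SE with high values in N-1 (14110 CPM) and N-7 (9018 CPM) among score-low tumors whose median was 1300 CPM.

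The keratins outside the score did not follow Krt8 and Krt18. Of 13 such genes 3 had a positive and 10 a negative difference, with a median log2 fold change of -1.24 and individual values from -5.55 to 0.60. The median was -2.39 in the control tumors alone and -0.04 in the RhoC tumors alone, and it turned positive in 3 of 27 other settings, at 0.18 without R-6 alone, with 7 of 13 positive, and 0.91 by voom with the mouse as a random effect. Krt7, a simple-epithelial partner keratin, ran from 175 to 614 CPM (median 283) in the score-high tumors against 50.5 to 1019 CPM (median 72.6) in the score-low tumors. Its 1 high value in the score-low group was 1019 CPM in R-6, above every score-high tumor, and the other 6 score-low tumors lay below all 7 score-high tumors. Krt19, the luminal keratin, spanned 2.31 to 821 CPM (median 204) in the score-high tumors against 0.0735 to 4091 CPM (median 154) in the score-low tumors. Krt5, a basal keratin, was at 4804 CPM in R-13, 2932 in R-14 and 1586 in R-12 among score-high tumors and at 6193 in R-6 and 1262 in N-1 among score-low tumors, with the lowest values at 0.0580 in N-8 and 0.0147 in R-21. Krt14 ran from 9.30 to 6210 CPM in the score-high and from 0.0294 to 9391 CPM in the score-low tumors. Krt10, a keratin of differentiated epidermis, had -5.55 ± 1.57 SE, which followed N-1 (286 CPM) and N-7 (44.7 CPM), since all other tumors of both groups were at 2.53 CPM or less, and DESeq2 called it lower. Krt79, a suprabasal keratin, had -2.92 ± 1.21 SE. Of the squamous differentiation genes 7 of 14 passed the filter on low counts. The summed level of all 14 ran from 16.5 to 713 CPM in the score-high and 6.25 to 2093 CPM in the score-low tumors, and the highest tumor of each group, R-13 and R-6, was a squamous cell carcinoma.

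**Figure D4:**
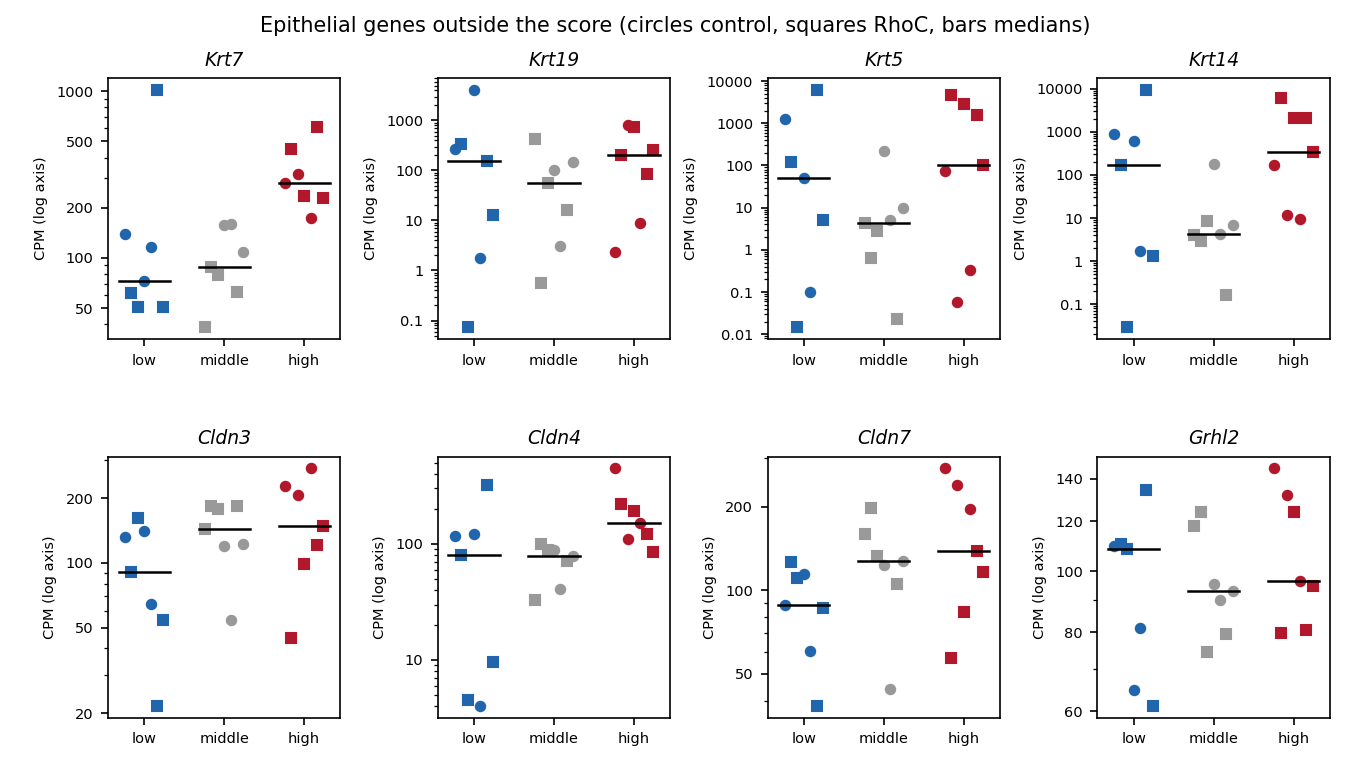
CPM (log y axis) of 8 epithelial genes that were not part of the score, in the score-low, middle and score-high tumors, with circles for the control cohort, squares for the RhoC cohort and bars at the group medians. Krt5 and Krt14 span several orders of magnitude within each group, and Grhl2 lies in the same range in all 3.

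The junction genes were higher in part and the regulators and other keratins had no stable direction, so the groups are described here by their score and not as tumors rich and poor in epithelium. In bulk tumors fewer cells of a type and less RNA per cell cannot be told apart.

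Mesenchymal genes were not lower in the score-high tumors. All 11 mesenchymal core genes had a positive difference, with a median log2 fold change of 0.80 and 1 at an unadjusted p under 0.05, beside 4.65% of all genes in that direction. The median was 0.53 without R-12, 0.35 with groups from standardized genes and 0.28 with the noncoding share as a covariate, and per unit of the score over 21 tumors it was 0.15 with 8 of 11 positive. Vim, vimentin, ran from 398 to 1096 CPM (median 616) in the score-high tumors against 125 to 779 CPM (median 293) in the score-low tumors (log2 fold change 0.80, SE 0.40, adjusted p = 0.429). Fn1, fibronectin, ran from 1057 to 9756 CPM (median 3332) in the score-high tumors against 365 to 4197 CPM (median 734) in the score-low tumors (log2 fold change 1.25, SE 0.65, adjusted p = 0.455). Axl, a receptor kinase of mesenchymal carcinoma cells, had 1.28 ± 0.47 SE. Cdh2, N-cadherin, ran from 2.87 to 118 CPM (median 7.34) in the score-high tumors against 1.37 to 42.6 CPM (median 3.94) in the score-low tumors, with its highest value in R-12. The groups overlapped in all 4 genes. When the groups were formed from log2 CPM scaled to library size alone, the median of the list was -0.0035 with 5 of 11 positive, and Vim (-0.0035) and Cdh2 (-0.81) were no longer higher.

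The transcription factors of epithelial-mesenchymal transition showed no common direction, with 4 of 9 positive, a median of -0.05 and 0 at an unadjusted p under 0.05. Zeb1 ran from 11.8 to 36.4 CPM (median 21.01) in the score-high tumors against 11.9 to 45.05 CPM (median 24.9) in the score-low tumors, and Snai1 from 2.34 to 7.80 CPM (median 4.69) in the score-high tumors against 0.943 to 8.32 CPM (median 2.49) in the score-low tumors. Of the fibroblast and collagen genes, 14 of 18 tested members had a positive difference, the median log2 fold change was 0.45, 1 had an unadjusted p under 0.05 in the higher direction and 0 in the lower. Col1a1 ran from 619 to 5938 CPM (median 1442) in the score-high tumors against 248 to 2286 CPM (median 769) in the score-low tumors (log2 fold change 0.85 ± 0.55 SE), and Pdgfrb, the receptor of fibroblasts and pericytes, had 0.59 ± 0.23 SE. With groups formed from library-size log2 CPM the median was 0.0012 with 9 of 18 positive, and leaving out 1 tumor took it to 0.27 without R-13 and 0.74 without R-10. It was 0.11 with groups from standardized genes, 0.0036 with the noncoding share as a covariate and -0.00081 per unit of the score over 21 tumors. The summed level of the list was 3386 to 17731 CPM in the score-high and 1982 to 12623 CPM in the score-low tumors. In the TGF-beta pathway 10 of 15 genes were positive (median 0.23, or 0.13 without N-3 and -0.07 with the noncoding share as a covariate), with the latency protein gene Ltbp1 at 1.26 ± 0.42 SE and the receptor gene Tgfbr1 at 0.60 ± 0.22 SE.

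**Figure D5:**
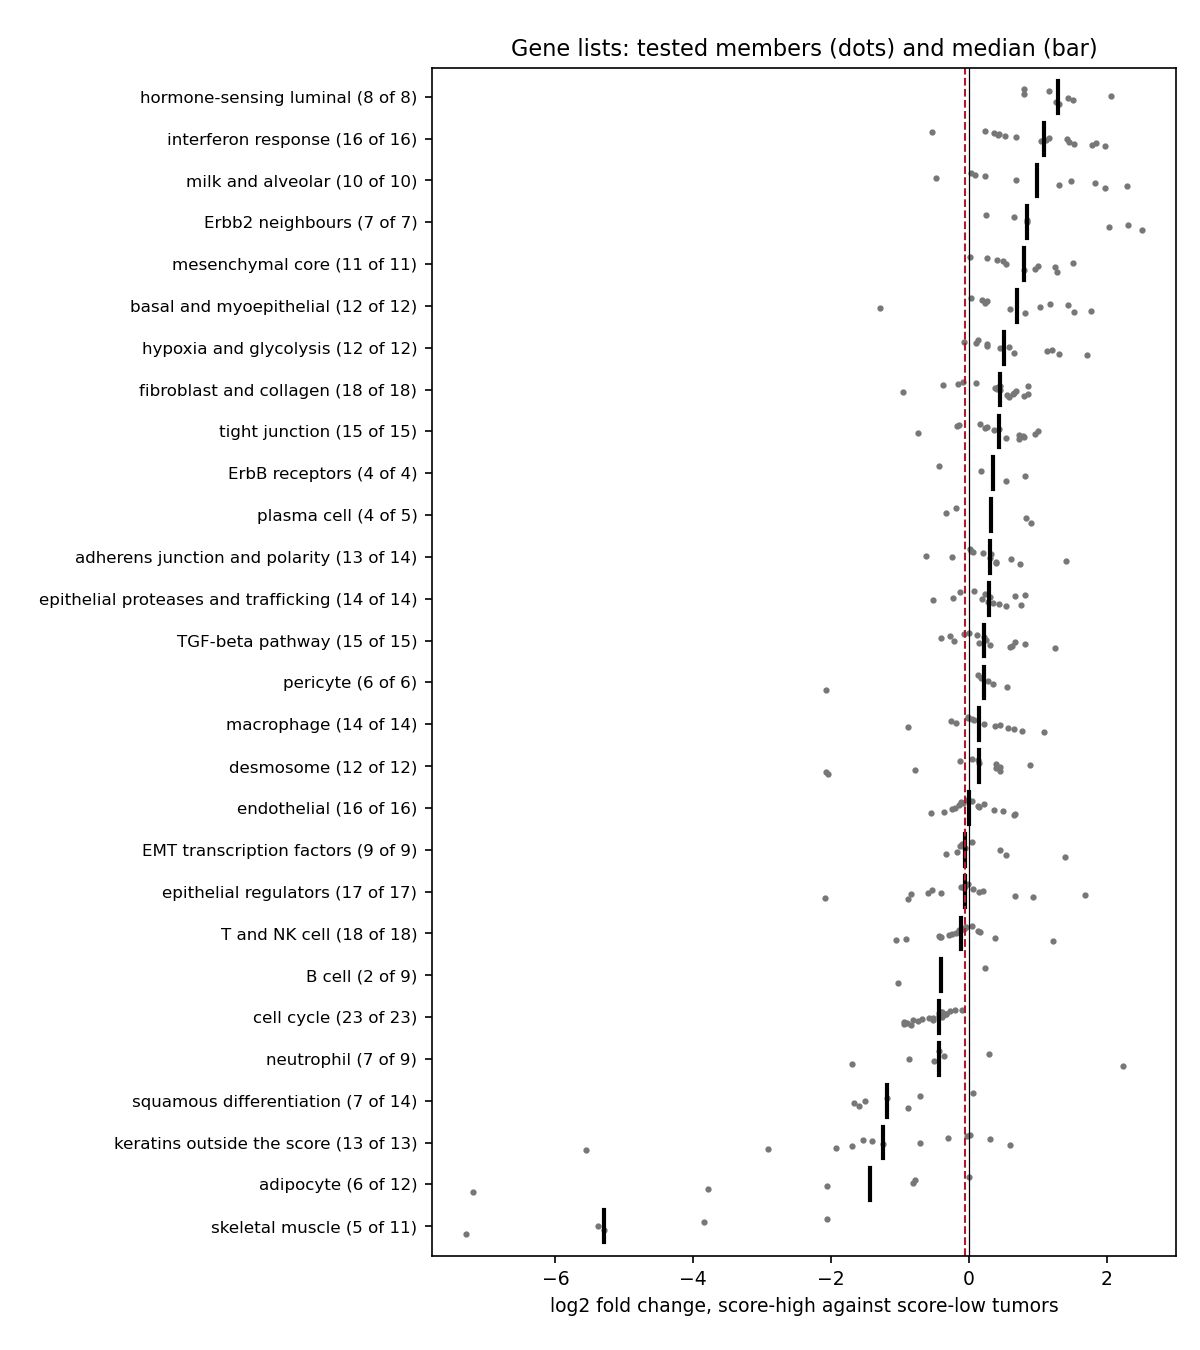
Log2 fold changes (x axis, score-high against score-low tumors) of the tested members of each gene list shown (dots) and the median of each list (bar), with the numbers tested and listed in brackets and a dashed line at the median of all genes, -0.06. All 23 cell cycle genes lie left of 0 and all 11 mesenchymal core genes right of it.

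Cell cycle genes had lower values in the score-high tumors. All 23 had a negative difference, with a median log2 fold change of -0.43, and 5 had an unadjusted p under 0.05, against 7.66% of all genes in that direction. Foxm1, the transcription factor of the G2 and M phases, ran from 10.8 to 36.2 CPM (median 23.4) in the score-high tumors against 31.8 to 49.4 CPM (median 47.1) in the score-low tumors (log2 fold change -0.84, SE 0.23, adjusted p = 0.242). Mki67, the proliferation marker, ran from 87.2 to 219 CPM (median 170.4) in the score-high tumors against 149 to 474 CPM (median 299) in the score-low tumors (log2 fold change -0.94, SE 0.30, adjusted p = 0.281). Top2a, topoisomerase II alpha, had -0.90 ± 0.38 SE. The 2 groups overlapped in all 3. The median of the list was -0.46 in the control tumors alone and -0.51 in the RhoC tumors alone, and it was -0.80 without N-15, -1.08 with the noncoding share as a covariate and -0.14 per unit of the score over 21 tumors, where 2 of 23 were positive.

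Genes of the interferon response, which cells switch on after infection, mostly had positive differences, 15 of 16, with a median of 1.09. Rsad2, an antiviral enzyme, ran from 10.98 to 329 CPM (median 36.7) in the score-high tumors against 3.53 to 56.8 CPM (median 13.3) in the score-low tumors (log2 fold change 1.97, SE 0.77, adjusted p = 0.342). Ifit2 had 1.79 ± 0.71 SE and the ubiquitin-like modifier gene Isg15 1.53 ± 0.71 SE. The highest summed level of the list, 3066 CPM, was in N-15. Without N-15 the median of the list was 0.21, and in the RhoC tumors alone it was 0.12 against 1.79 in the control tumors alone, a difference between cohorts that was not tested for the list.

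Genes of hypoxia and glycolysis were positive in 11 of 12, with a median of 0.52. The median was 0.24 with 9 of 12 positive in the control tumors alone, and 0.91 with 11 of 12 in the RhoC tumors alone. This difference between the cohorts was not tested for the list. Per unit of the score over 21 tumors the median was 0.26, with 9 of 12 positive. Car9, the carbonic anhydrase that marks hypoxic tumor cells, ran from 7.17 to 36.8 CPM (median 18.7) in the score-high tumors against 3.31 to 14.6 CPM (median 4.41) in the score-low tumors (log2 fold change 1.72, SE 0.45, adjusted p = 0.233), and DESeq2 called it. Slc2a1, the glucose transporter, had 1.30 ± 0.51 SE, with 1272 CPM in R-13 and 703 in R-12 of the score-high and 539 in R-6 of the score-low tumors.

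Luminal programmes varied widely. All 8 hormone-sensing luminal genes were positive (median 1.29, or 0.65 without R-14, 0.78 by voom with the mouse as a random effect and 0.77 with counts summed per mouse, where 7 of 8 were positive), of which Esr1, the estrogen receptor, ran from 10.9 to 129 CPM (median 24.2) in the score-high tumors against 8.73 to 27.2 CPM (median 12.97) in the score-low tumors (log2 fold change 1.31, SE 0.51, adjusted p = 0.340), and Prlr, the prolactin receptor, had 1.27 ± 0.57 SE. The highest Esr1 value, 129 CPM, was in the squamous tumor R-14. Of 10 milk and alveolar genes 9 were positive (median 0.996, with 0.36 without N-8, 0.52 without N-15 and 1.94 without N-1, and 2.78 by voom with the mouse as a random effect, 4.45 with groups from library-size log2 CPM and 5.78 with the noncoding share as a covariate), and Csn2, beta-casein, ran from 134 to 4836 CPM (median 535) in the score-high tumors against 0.169 to 869.6 CPM (median 13.3) in the score-low tumors (log2 fold change 2.30, SE 1.51, adjusted p = 0.557). The middle tumor R-18 exceeded both groups, at 42055 CPM. Csn3, kappa-casein, had 1.98 ± 1.09 SE. Basal and myoepithelial genes were positive in 11 of 12 (median 0.71, with 0.47 without R-13, 1.28 without R-6 and 0.17 with groups from library-size log2 CPM), with Tagln, a smooth muscle actin-binding protein, at 0.82 ± 0.40 SE.

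Erbb2, whose locus carries the activated Neu cDNA, had a positive difference, and its groups overlapped. Its level in CPM was 58.6 in N-15, 821 in R-13, 2731 in N-8, 969 in R-14, 2628 in N-6, 700.2 in R-12 and 754 in R-15 in the score-high group. In the score-low group it was 970.0 in N-1, 259.6 in R-2, 540.0 in R-21, 601 in N-7, 1659 in N-3, 451 in R-6 and 309 in R-10 (log2 fold change 0.82, SE 0.63, adjusted p = 0.621). N-15, the tumor with the highest score, had the lowest Erbb2 level of all 21 tumors, and the groups overlapped with or without it. The 7 neighbouring genes of Erbb2 had a median of 0.85, or -0.06 without N-6, 0.31 without N-8 and 2.02 without N-3, and Med1 and Cdk12 were high in 1 tumor of the 14, N-8, at 6411 and 3436 CPM against 132 to 269.8 and 108 to 207 CPM in the other 13, while the middle tumors N-9 and N-17 had 4285 and 2971 CPM of Med1. Their log2 fold changes of 2.52 and 2.03 turned to -0.30 and -0.19 without N-8. Of the ErbB receptor genes 3 of 4 were positive (median 0.36), and 4 of 4 without R-2 (median 0.61) or with the noncoding share as a covariate (median 0.88).

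Most genes that tracked the score as a number over all 21 tumors were carried by single tumors at its ends. With the score as a continuous term edgeR called 12 genes, 7 higher and 5 lower with a rising score. Each of the 12 had its highest level in 1 of 3 tumors, N-15 for the 7 higher genes and R-10 or R-6 for the 5 lower ones. Krt8-ps, a copy of Krt8, was graded instead, at 0.830 to 3.91 CPM in the score-high and 0.198 to 0.511 CPM in the score-low tumors. Reads that match both Krt8 and its copy were not counted, but the counts of Krt8-ps may still come from Krt8. Capza2, which caps actin filaments, was at 9070 CPM in N-15 and 111 to 328 CPM in the other 20. Tes, a focal adhesion protein, was at 8940 against 47.6 to 199 CPM, and St7 at 703 against 10.4 to 28.2 CPM. These 3 genes flank Met on chromosome 6 (Tes from chr6:17065149, St7 to 17943025, GRCm38.p6). Met, the receptor of hepatocyte growth factor, which was looked up after these values were seen, was at 19382 CPM in N-15 and 33.9 to 928 CPM in the other 20. Cav2, in the same stretch, was at 3919 against 22.4 to 319 CPM, whereas Tfec and Mdfic, on its proximal side, were at 2.47 and 48.2 CPM in N-15 and within the range of the other tumors. N-15 was thus the tumor with the highest score, the highest Met and the lowest Erbb2.

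Markers of other cell types gave mixed values. Macrophage genes were positive in 9 of 14 (median 0.15), with Cd14 at 1.09 ± 0.43 SE and the complement gene C1qa at 0.77 ± 0.33 SE. The macrophage median was -0.03 with library size alone as the scaling, where the median of all genes was -0.24. It was 0.35 without N-3, -0.29 with the noncoding share as a covariate and -0.18 with groups from standardized genes. In the control tumors alone it was 0.72 and in the RhoC tumors alone 0.02, which was not tested. Endothelial genes were positive in 8 of 16 (median 0.01), but in 2 of 16 with groups from library-size log2 CPM (median -0.45) or from standardized genes (median -0.50). Pericyte genes were positive in 5 of 6 (median 0.23). Their median was 0.099 without N-8, -0.10 with groups from library-size log2 CPM and -0.13 with the noncoding share as a covariate. With counts summed per mouse it was 0.38. T and NK cell genes were positive in 5 of 18 (median -0.11), and their summed level was 7.55 to 53.01 CPM in the score-high and 6.35 to 73.2 CPM in the score-low tumors. Without R-2 the T and NK median turned to 0.71, with 16 of 18 positive. Neutrophil genes had a median of -0.44 over the 7 of 9 that passed the filter, which turned to 1.22 without R-6 and was -1.52 without N-8. Plasma cell genes had a median of 0.33 over 4 of 5, or -0.41 without N-8, and B cell genes -0.40 over 2 of 9. The defining B cell marker Ms4a1 did not pass the filter. Some immune lists had opposite signs in the cohorts taken alone. The median was 1.02 in the control and -0.90 in the RhoC tumors for T and NK cell genes and 1.21 and -1.30 for neutrophil genes. Neither difference between the cohorts was tested for a list, and edgeR's test of score group by cohort called 0 genes (933 at an unadjusted p under 0.05).

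Skeletal muscle and fat genes were high in a few score-low tumors. The 5 of 11 muscle genes that passed the filter had a median log2 fold change of -5.29, and their summed level, over all 11, was 1.09 to 105 CPM in the score-high and 0.691 to 871 CPM in the score-low tumors, with the score-high maximum in R-13 and the score-low maximum in R-10. Atp2a1, the calcium pump of fast muscle, was at 117 CPM in N-3, 104 in R-10 and 9.98 in N-7, while the other 11 tumors of the 2 groups were at 0.678 CPM or less. Mylpf, a fast myosin light chain, was at 50.9 CPM in R-10, 34.9 in N-3 and 1.86 in N-7. Ttn was at 1514 CPM in R-10, 592 in N-3 and 211 in R-2. Adipocyte genes had a median of -1.43 over 6 of 12, with Car3 at 189.9 CPM in R-10 and 61.98 in N-3, and Fabp4 at -2.05 ± 0.81 SE. The adipocyte median was -2.52 without N-6, -2.22 without N-1 and -1.10 without R-6, each over 7 of 12. By DESeq2 it was -4.02 over all 12. By DESeq2, 10 of 11 muscle and 5 of 12 adipocyte genes were among the 326 called lower, beside 1.43% of the genes tested. The part of muscle and fat in the other differences was not tested. The middle tumor N-17 had the highest muscle sum of all 21, 6615 CPM, and 13874 CPM of Ttn.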

How the data were processed

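Total RNA of 21 mammary tumors was sequenced as stranded, ribosomal RNA-depleted libraries. The deposited counts are raw read counts per gene (49652 genes). According to the submitters' processing notes the authors used FastQC 0.11.5, Trim Galore 0.5.0, STAR 2.6.0c and HTSeq 0.6.1p2 with GRCm38.p6, and the strand setting of the counting is not given in the sources used here. The FPKM values, which the authors deposited in 1 table beside fold changes and p-values of their own RhoC against control comparison, served only to compare levels between the 4 score genes. Those comparison columns were not used. Gene names came from that table (23203 names) and a reference table (26177), with 272 IDs left unnamed. Gene classes and positions came from the authors' table alone, so the noncoding share counts only genes listed there.

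Counts were fitted with edgeR 4.0.16 (filterByExpr, TMM, quasi-likelihood F-test, R 4.3.3) on the 14 tumors of the 2 groups, with Benjamini-Hochberg adjustment over 18716 genes. SEs were derived from the F statistic. DESeq2 1.42.0 and limma 3.58.1 (voom) served as alternatives, and only the main edgeR fit was tested on simulated data. The genes named were the 15 with the smallest p in each direction with a mean log2 CPM of at least 2, the members of 29 lists (358 genes) with an unadjusted p under 0.05, and a few defining members of each list. Members and lists were chosen with earlier results of these data known. The lists are described by counts and medians. Tumors were treated as the replicates, and the main fit and the permutation tests took no account of tumors that shared a mouse. An unadjusted p under 0.05 was reached by 1684 genes in edgeR with counts summed per mouse. By voom with the mouse as a random effect it was reached by 1432. Totals of 47309780 to 100741339 counts per tumor limit the precision of low genes, and read counts without molecular identifiers are not independent molecules. Single values were tested by exact permutation over tumors (two-sided). Histology is the study's own pathology, matched by tumor name, and was not assigned for 3 tumors. Levels of other genes looked up afterwards, such as Met, were chosen after the data were seen. One list and a few genes are not reported here.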

Additional observations from a re-analysis of the deposited data

Results flagged for a closer look

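Of 158 groups of 7 tumors examined, 14 held a tumor far from the other 6 by Dixon's test, where chance gives about 1 in 20. Values here are log2 CPM. N-15 was far below the other score-high tumors in Erbb2, at 5.87 with the nearest at 9.45, and in Car2 (4.95, nearest 6.88), Alg2 (4.91, nearest 5.48) and Zkscan3 (4.55, nearest 4.92), and far above them in Isg15 (6.08, nearest 4.17). N-8 stood above the other score-high tumors in Med1 at 12.65 (nearest 7.35), Cdk12 at 11.75 (nearest 7.23), the vascular receptor gene Flt1 at 7.86 (nearest 6.73) and the muscle gene Mylpf at -0.68 (nearest -1.44).

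Among the score-low tumors, R-6 was lowest in Zgrf1 at 3.31 (nearest 4.13) and highest in Ctnna1 at 9.24 (nearest 8.43). R-10 was highest in Pdgfrb at 7.60 (nearest 6.58), N-3 lowest in Gga3 at 4.57 (nearest 5.28) and N-1 highest in Cdk12 at 7.69 (nearest 7.21).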

How the results depend on the processing

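The count of 0 called genes held with library size alone as the scaling, no filter on low counts, cohort as a covariate, counts summed per mouse, voom with the mouse as a random effect, the middle tumors as another group, either cohort alone, without the spindle cell tumor, and with groups from standardized genes or from library-size log2 CPM. It rose to 486 by DESeq2, 12 with the score as a number and 1 (Cotl1) without the squamous cell carcinomas. Leaving out 1 tumor gave 0 to 19, where 19 was without R-6 and 0 without any other. In alternatives added after seeing the data it was 0 with the noncoding share as a covariate and 9 without R-6 and R-10. The causes were not tested. The difference in epithelial score by cohort ran from -0.19 to 0.011 when 1 tumor was left out, above 0 only without N-15.

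Of the log2 fold changes of 72 named genes, 2109 values kept direction and side of the threshold, 40 passed it and 10 changed sign. With the noncoding share as a covariate Jup was 0.53 and Krt10 2.55. With groups from library-size log2 CPM Vim was -0.0035 and Cdh2 -0.81. Med1 was -0.27 by DESeq2 and -0.017 in RhoC tumors alone, and Cdk12 -0.17 and -0.12. Leaving out 1 tumor took Med1 from -0.30 to 2.74 and Cdk12 from -0.19 to 2.24, lowest without N-8. No paired analysis was possible because no mouse gave tumors to both the score-high and the score-low group, and the 1 label number they share, 6, joins tumors of different mice.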
